A study of Drosophila melanogaster with 12 samples.

Results

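Genes that act with the Argonaute protein Piwi in the nucleus, and genes of the small interfering RNA (siRNA) route, were followed through all 12 RNA libraries of a study of Hinfp in the gut of Drosophila melanogaster. The set was chosen by symbol and holds 10 of the 16524 genes in the pharate count table, 6 of the nuclear piRNA route (piwi, arx, Panx, rhi, del and cuff) and 4 of the siRNA route (AGO2, Dcr-2, loqs and r2d2). All 10 were found in the pharate table and in the adult table of 15651 genes, and all 10 passed the filter on low counts. Hinfp encodes a zinc finger protein whose vertebrate counterpart regulates histone gene transcription.

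PIWI-interacting RNAs (piRNAs) guide Piwi proteins to transposon transcripts. In the nucleus, Piwi, its partner Asterix (arx) and the silencing factor Panoramix (Panx) bring repressive chromatin to transposon copies that are being transcribed. In ovarian germ cells Rhino (rhi), Deadlock (del) and Cutoff (cuff) bind together at piRNA clusters and allow those clusters to be transcribed into piRNA precursors. The siRNA route is the transposon and virus defence known from somatic tissue: Dicer-2 (Dcr-2) cuts long double-stranded RNA, R2D2 (r2d2) and forms of Loquacious (loqs) bind the duplex with it, and AGO2 carries the resulting siRNA to its target.

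The pharate set (adults formed but still in the pupal case) came from male guts with Malpighian tubules, with 2 libraries of each genotype: the deletion mutant Hinfp2 (DelMut), the point mutant Hinfp3 (PointMut), and the control strains W1118 and FRT19A. The adult set had 1 intestine library of each genotype: Hinfp2 males with an HA-tagged Hinfp transgene, Hinfp2 males with an HA-tagged His1 transgene (the linker histone), Hinfp2 males, and FRT19A males. Both transgenes were driven by tub-Gal4, a broadly active driver, so the rescued cell type is not defined. About 50 guts were pooled per sample at 25 °C, at 8 to 9 days for mutants and rescues and 5 to 6 days for controls, so age and genotype cannot be told apart. Whether the 2 libraries of a genotype are separate cultures is not stated, so the p-values refer to the spread between libraries, which may be technical. In each pharate genotype replicate 1 was titled SE and replicate 2 PE, and the labels describe the libraries both as poly-A selected and as ribosomal RNA depleted.

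Depth ran from 21924226 to 25634929 gene counts in the pharate mutants and from 26123328 to 28740669 in the pharate controls, and from 17991664 to 20271512 in the adult libraries. Hinfp averaged lower in mutants (log2 change -0.87, edgeR adjusted p = 0.0837), which did not pass the test, and HIS1, the linker histone row, was lower (log2 change -7.07, adjusted p = 0.0353). HIS1 was at 4.14 and 6.04 CPM in the SE libraries of W1118 and FRT19A and at 222.6 and 168.7 CPM in their PE libraries. In the mutants it was at 0.112 to 1.80 CPM, so the size of its change rests mainly on the PE controls. Markers of enterocytes, progenitors, enteroendocrine cells, tubules and visceral muscle were all above 0 in every pharate library. Markers of the male germline, a neighbouring organ, were also present, at a summed 404.8 to 1028 CPM in mutants and 103.1 to 757.6 CPM in controls. In each of the 4 genotypes they were higher in the SE library than in the PE library. CPM is the read count scaled to a common library size (with TMM factors in the pharate set).

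In the pharate gut, del and piwi were far higher in Hinfp mutants, AGO2 was moderately higher, and the other 7 genes did not pass the test over all 8 libraries. The rise of del was 12.3-fold and that of piwi 4.91-fold, while that of AGO2 was 1.61-fold. Among the 6 nuclear genes 2 were called higher and 0 lower, and among the 4 siRNA genes 1 was called higher and 0 lower. Over all 13244 genes tested, 4.59% were called higher and 6.34% lower (edgeR quasi-likelihood test, mutants minus controls, Benjamini-Hochberg adjusted p under 0.05). The median log2 change was 1.10 for the 6 nuclear genes and -0.07 for the 4 siRNA genes, beside -0.01 for all genes. The SE libraries alone gave no call for any of 13145 genes (0% higher, 0% lower, 3091 at an unadjusted p under 0.05), del and piwi included (log2 change 3.34, edgeR adjusted p = 0.0836 for del, and 2.26, 0.114 for piwi). With W1118 as the lone control, where 1.26% of all genes were called higher, neither passed (3.27, edgeR adjusted p = 0.0909 for del, and 2.81, 0.0506 for piwi). With FRT19A as the lone control, where 2.51% were called higher, del passed and piwi did not (1.92, edgeR adjusted p = 0.0517). With the replicate number as a block, r2d2 was called lower as well, beside 12.3% of all genes called higher and 19.2% lower in that fit.

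**Figure D1:**
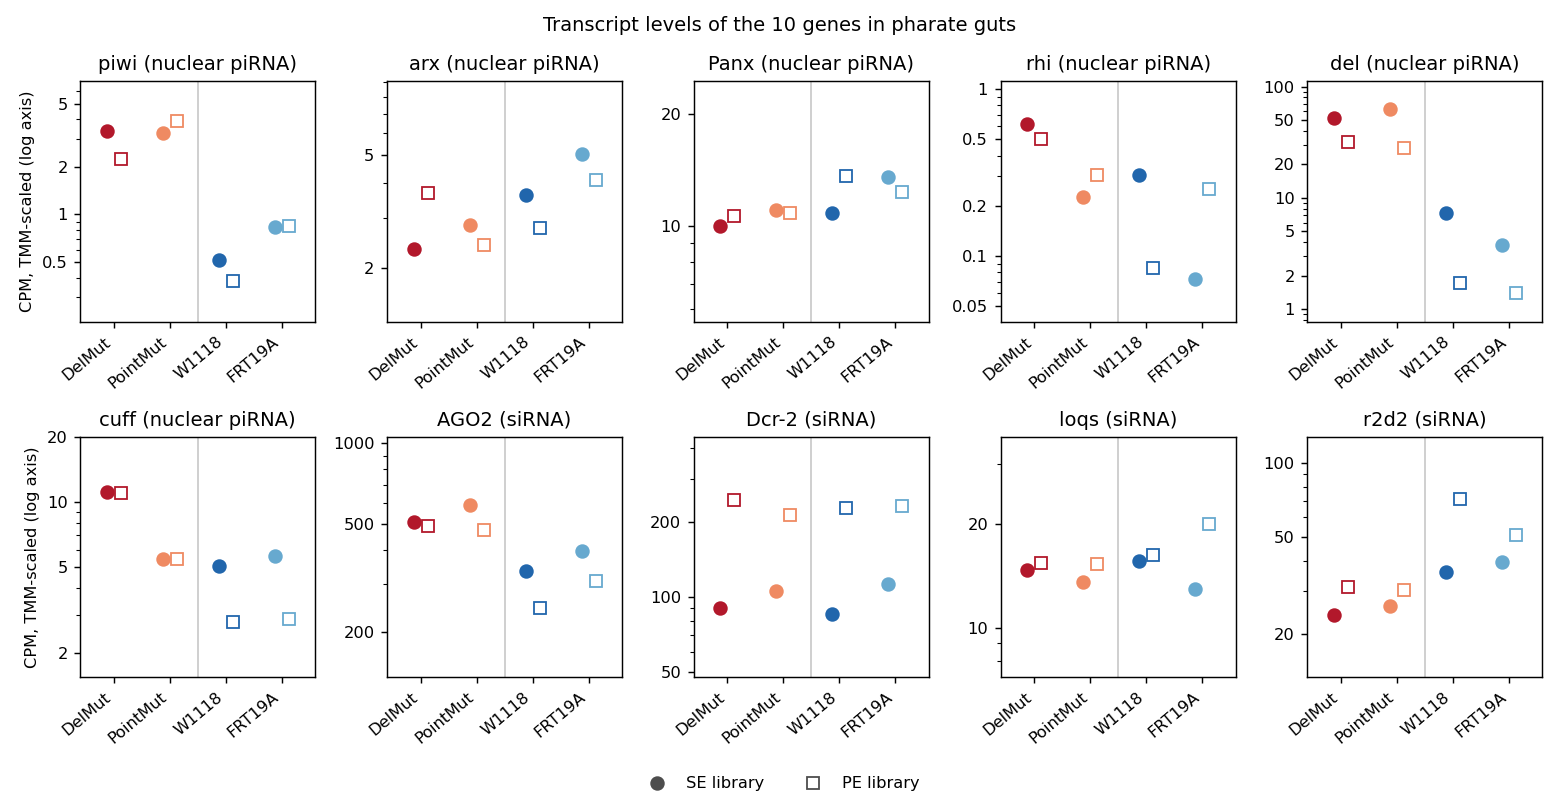
TMM-scaled CPM of each gene (log axis, own scale per panel) in the 8 pharate libraries, with filled circles for SE and open squares for PE libraries. All 4 mutant libraries lie above all 4 control libraries for piwi, del and AGO2 and below them for r2d2, whereas the groups overlap for arx, Panx, rhi, cuff, Dcr-2 and loqs.

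piwi (FBgn0004872, BDGP6 chromosome 2L, 10982205 to 10987420, minus strand) encodes the nuclear Argonaute itself. It had 3.37 and 2.26 CPM in the SE and PE libraries of DelMut and 3.26 and 3.86 CPM in those of PointMut, against 0.518 and 0.379 CPM in W1118 and 0.837 and 0.844 CPM in FRT19A. Each mutant library was above each control library. The log2 change was 2.30 (SE 0.39; adjusted p = 0.0130, edgeR), and it was 2.26 in the SE libraries alone and 2.34 in the PE libraries alone. The counts behind these levels were small, 49 to 92 reads in mutants and 9 to 23 reads in controls. Over 6.22% of its exon bases it overlaps SCAR on the opposite strand, and SCAR had 1928 to 2585 reads in mutants and 1874 to 2544 in controls.

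Its partners in transcriptional silencing did not pass the test. arx (FBgn0036826, 3L, 18900595 to 18901554, minus strand), which encodes a small zinc finger protein bound to Piwi, averaged 2.82 ± 0.615 CPM in mutants and 3.89 ± 0.949 CPM in controls (SD, n = 4 each). Panx (FBgn0034617, 2R, 21310368 to 21312354, minus strand), which links Piwi on nascent RNA to the chromatin machinery, averaged 10.6 ± 0.456 CPM in mutants and 12.6 ± 1.29 CPM in controls (SD, n = 4 each). The ranges overlapped for both genes. Their log2 changes were -0.46 (SE 0.30, edgeR adjusted p = 0.393) for arx and -0.25 (SE 0.16, adjusted p = 0.384) for Panx. The log2 change of arx was -0.77 in the SE libraries alone and -0.16 in the PE libraries alone.

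del (FBgn0086251, 2L, 21145137 to 21148546, minus strand), the scaffold between Rhino and its transcription partners, had the largest change of the 10 genes. It stood at 51.9 and 32.0 CPM in the SE and PE libraries of DelMut and at 62.5 and 28.3 CPM in those of PointMut, against 7.28 and 1.73 CPM in W1118 and 3.75 and 1.39 CPM in FRT19A. The lowest mutant library, at 28.3 CPM, exceeded the highest control library at 7.28 CPM. The log2 change was 3.62 (SE 0.60) with an edgeR adjusted p = 0.0124. Within the SE libraries the mutant mean was 10.4 times the control mean and within the PE libraries 19.3 times. The log2 change was 0.90 larger in PE than in SE libraries, a difference that did not pass the test (interaction, SE 0.45, edgeR adjusted p = 0.428). Without replicate 1 of FRT19A, which leaves 1 SE control library, the same difference was 1.30. In that test 0 of the 10 genes were called over all 8 libraries and 0 had an unadjusted p under 0.05 (DESeq2 called 0 too), beside 6.07% of all genes called in edgeR.

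The other members of the complex at piRNA clusters were less clear. cuff (FBgn0260932, 2R, 11886067 to 11887603, plus strand), which binds RNA ends at clusters and holds off transcript termination, had 11.2 and 11.0 CPM in the SE and PE libraries of DelMut and 5.46 and 5.45 CPM in those of PointMut, against 5.03 and 2.78 CPM in W1118 and 5.64 and 2.87 CPM in FRT19A. The DelMut libraries were the highest, and the PointMut libraries lay level with the SE controls. The log2 change of cuff was 1.02 (SE 0.39, edgeR adjusted p = 0.144), and the blocked fit gave 1.09 (adjusted p = 0.0562). In the PE libraries alone it was 1.55 and passed (edgeR adjusted p = 0.0417), beside 21.5% of all genes and 15 of 23 male germline markers called higher there, and in the SE libraries alone it was 0.61 (adjusted p = 0.411).

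rhi (FBgn0004400, 2R, 17628491 to 17633516, minus strand) encodes the HP1-like protein that marks clusters. It was counted in 17, 11, 6 and 7 reads in the SE and PE libraries of DelMut and then PointMut, against 10, 2, 2 and 6 reads in those of W1118 and then FRT19A. These counts overlap, and the log2 change of 1.19 (SE 0.65, edgeR adjusted p = 0.311) did not pass. rhi lies inside an intron of CG10936 on the same strand and shares no exon base with it. CG10936 had 47 to 141 reads in mutants and 22 to 185 in controls.

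AGO2 (FBgn0087035, 3L, 15554113 to 15561042, plus strand), the Argonaute of the siRNA route, had 509.6 and 492.1 CPM in the SE and PE libraries of DelMut and 588 and 474.7 CPM in those of PointMut, against 336.5 and 243.9 CPM in W1118 and 397.8 and 307.8 CPM in FRT19A. All 4 mutant libraries were above all 4 control libraries. The log2 change was 0.68 (SE 0.18) with an edgeR adjusted p = 0.0471, close to the threshold. It passed in the blocked fit (0.69, edgeR adjusted p = 0.00646) and in the PE libraries alone (0.83, adjusted p = 0.0171; 15 of 23 male germline markers were called higher in that fit), and did not in the SE libraries alone (0.56, adjusted p = 0.190). It also missed the threshold with no filter on low counts (edgeR adjusted p = 0.0642) and with library size alone as the scale (0.0669). Leaving out 1 library at a time kept the log2 change between 0.57 and 0.80, but the call in 1 of 8 cases only, against 8 of 8 for del and for piwi.

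r2d2 (FBgn0031951, 2L, 7800147 to 7802098, plus strand), the partner that helps Dicer-2 load siRNAs into AGO2, had its lower values in the mutants. It had 24.0 and 31.1 CPM in the SE and PE libraries of DelMut and 26.1 and 30.3 CPM in those of PointMut, against 35.9 and 71.3 CPM in W1118 and 39.6 and 50.9 CPM in FRT19A. Each mutant library was below each control library, yet the log2 change of -0.83 (SE 0.24) had an edgeR adjusted p = 0.0637 and missed the threshold. The blocked fit gave -0.79 (SE 0.14, edgeR adjusted p = 0.00733) and called it lower, as did library size alone as the scale (adjusted p = 0.0425), DESeq2 (0.0156) and the PE libraries alone (0.0267). In these 3 fits 6.39%, 10.2% and 15.8% of all genes were called lower, in the same order. Its exons share 22.9% of their bases with Cdc14 on the opposite strand, and strand use in counting is not given in the sources used here. Cdc14 had 2464, 1381, 2224 and 1457 reads in the SE and PE libraries of DelMut and then PointMut, against 2986, 1319, 1784 and 1403 reads in those of W1118 and then FRT19A. Its PE counts were lower than its SE counts in every genotype, while those of r2d2 were higher than its SE counts in DelMut, W1118 and FRT19A.

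Dcr-2 (FBgn0034246, 2R, 17574979 to 17581525, minus strand) and loqs (FBgn0032515, 2L, 13382652 to 13385671, plus strand) gave no call. Dcr-2 had 90.7 and 246.4 CPM in the SE and PE libraries of DelMut and 106 and 213.9 CPM in those of PointMut, against 85.6 and 227.8 CPM in W1118 and 113.1 and 232.5 CPM in FRT19A. Its PE level was 2.34 times its SE level in mutants and 2.32 times in controls, while the mutants were 0.990 times the controls within the SE libraries. The log2 change of Dcr-2 was -0.0044 (SE 0.45), and -0.0073 (SE 0.11) with the replicate block, with a sign that turned under other scalings. loqs averaged 14.8 ± 0.874 CPM in mutants and 16.2 ± 2.91 CPM in controls (SD, n = 4 each), a log2 change of -0.13 (SE 0.17, edgeR adjusted p = 0.670). Exons of loqs overlap the antisense RNA asRNA:CR44599 over 18.3% of their bases, and that RNA had 3 to 15 reads in mutants and 2 to 47 in controls.

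**Figure D2:**
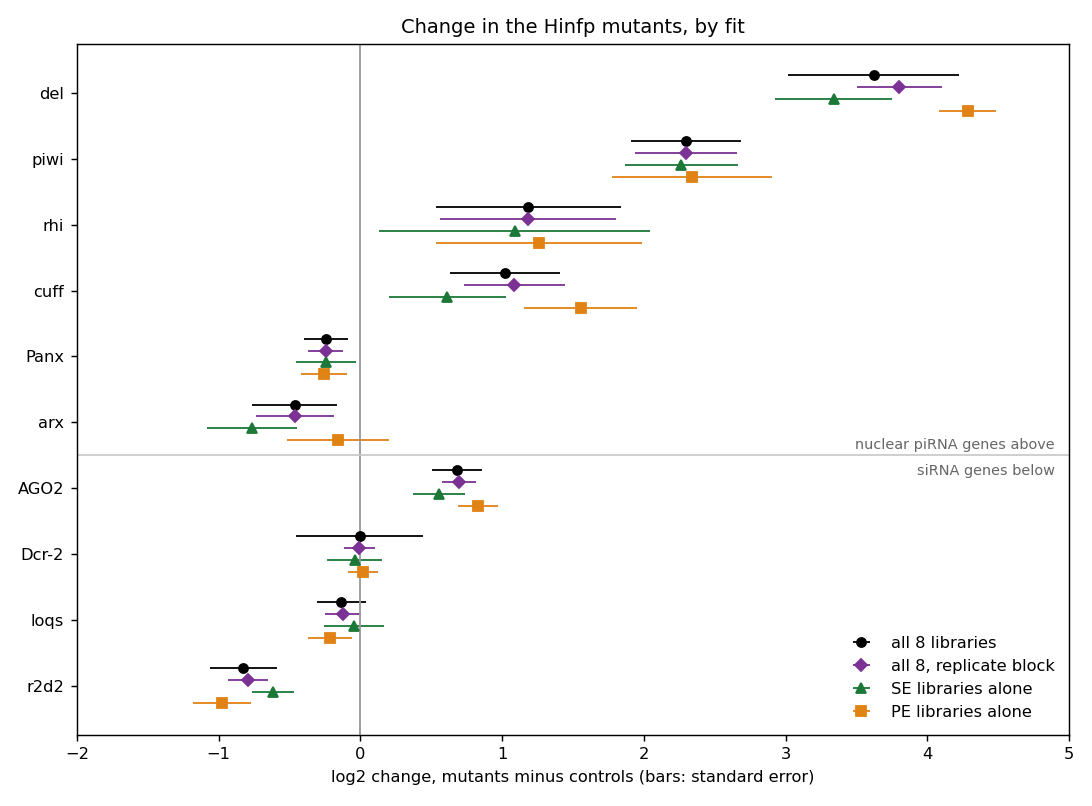
Log2 change, mutants minus controls, with its standard error for each gene in 4 fits: all 8 libraries, all 8 with the replicate block, SE libraries alone and PE libraries alone. del and piwi lie furthest right in all 4 fits, AGO2 lies right of 0 and r2d2 left of 0 in each, and the SE and PE libraries lie furthest apart for del (3.34 and 4.28) and cuff (0.61 and 1.55).

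Each CPM range was also set against the whole table. Mutant ranges lay wholly above control ranges for 3 of the 10 genes (piwi, del and AGO2), where 9.35% of the 13244 genes did so, and wholly below for 1 of 10 (r2d2), where 12.2% did so.

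The alleles were then compared with each control strain, in contrasts that share libraries. Without the replicate block none of the 10 genes was called in any of the 6 pairs, nor was any of the 13244 genes (edgeR). At an unadjusted p under 0.05 there were 1949 genes for DelMut against FRT19A, 1840 for PointMut against FRT19A, 1652 for DelMut against W1118 and 1594 for PointMut against W1118. DESeq2 called 2 of the 10, del and piwi, higher in each of these 4 pairs, beside 4.39%, 4.5%, 3.69% and 3.66% of all genes called higher in the same order. With the replicate block del was called higher in all 4, with a log2 change of 4.18 for DelMut against FRT19A (edgeR adjusted p = 0.0253), 4.20 for PointMut against FRT19A (0.0253), 3.48 for DelMut against W1118 (0.0310) and 3.50 for PointMut against W1118 (0.0303). The blocked fits called 4.02%, 3.34%, 3.64% and 3.35% of all genes higher in these pairs, in the same order.

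piwi passed in 3 of these 4 blocked pairs, with a log2 change of 2.08 for PointMut against FRT19A (edgeR adjusted p = 0.0492), 2.63 for DelMut against W1118 (0.0411) and 2.99 for PointMut against W1118 (0.0383). For DelMut against FRT19A it was 1.72 (edgeR adjusted p = 0.0587). AGO2 passed against W1118 alone, with 0.81 for DelMut (edgeR adjusted p = 0.0448) and 0.88 for PointMut (0.0434), beside 0.52 (0.0765) for DelMut and 0.59 (0.0634) for PointMut against FRT19A. r2d2 was lower by 0.67 to 0.91 in the blocked pairs without passing in any (adjusted p 0.0703 to 0.115).

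The alleles did not differ from each other in any of the 10 genes by the test, with or without the block, nor did the control strains. For DelMut against PointMut, edgeR had 34 genes of 13244 at an unadjusted p under 0.05 and none of the 10, and for W1118 against FRT19A 606 genes and none of the 10; DESeq2 called none of the 10 in either pair. cuff came nearest between the alleles, at a log2 difference of 1.02 in the blocked fit (SE 0.36, unadjusted p = 0.0385, adjusted p = 1). Between the strains piwi was 0.91 lower in W1118 on the log2 scale in the blocked fit (SE 0.41, edgeR adjusted p = 0.524).

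Levels between genes were compared per length, in the authors' TPM. AGO2 was highest, at 211.4 ± 70.3 TPM in mutants and 133 ± 57.6 TPM in controls (SD, n = 4 each). Dcr-2 came next, at 44.0 ± 10.7 TPM in mutants and 43.3 ± 8.90 TPM in controls, followed by r2d2 at 24.3 ± 3.65 TPM in mutants and 41.1 ± 5.41 TPM in controls (SD, n = 4 each). del held rank 4 of 10 in mutants at 23.7 ± 13.8 TPM and rank 8 in controls at 2.10 ± 2.13 TPM (SD, n = 4 each). The lowest levels were those of piwi, at 1.75 ± 0.602 TPM in mutants and 0.349 ± 0.146 TPM in controls, and rhi, at 0.450 ± 0.272 TPM in mutants and 0.201 ± 0.175 TPM in controls (SD, n = 4 each).

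In the mutants, the mean ± SD of neighbours in this order overlapped from r2d2 through del, cuff and loqs to Panx, and each other step was wider than the spread. In the controls Dcr-2 and r2d2 overlapped, as did each neighbouring pair from loqs down to rhi, so that single steps among those 7 genes were not resolved. The 4 siRNA genes summed to 4.72 to 7.80 times the 6 nuclear genes in mutants and 7.64 to 11.2 times in controls, in TPM. Within the nuclear sum del made up 33.8% to 57.3% in mutants and 3.05% to 13.8% in controls. In the PE libraries 7SL RNA alone took 12.8% to 16.1% of all TPM and in the SE libraries under 0.001%, so TPM in the PE libraries divide a smaller remainder among the other genes.

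**Figure D3:**
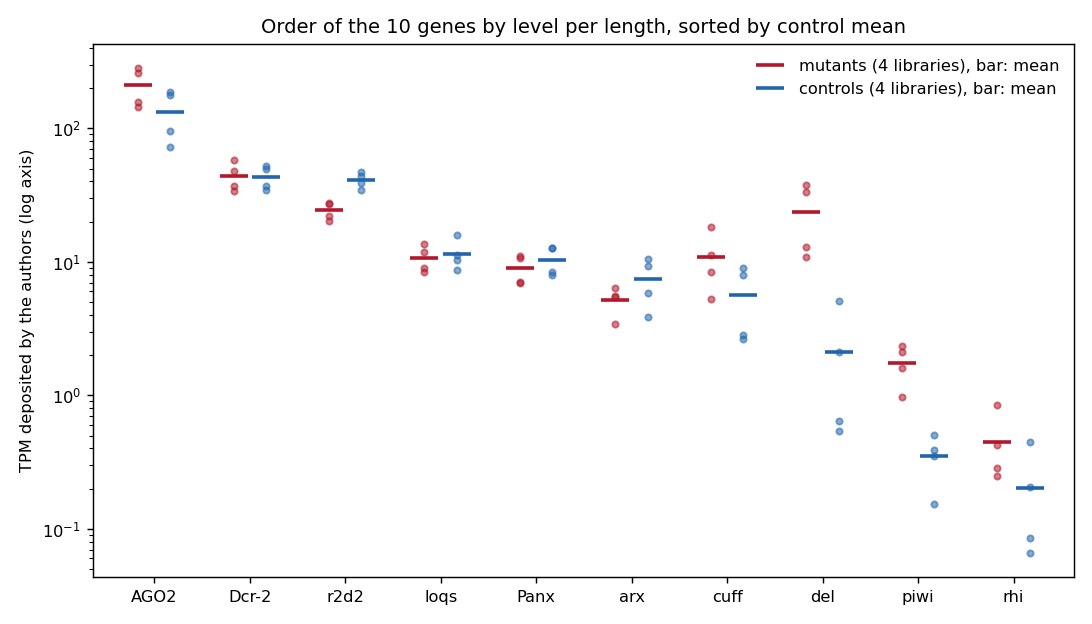
TPM deposited by the authors for each gene (log axis), genes sorted by their control mean, with 1 point per library and a bar for the mean of 4 mutant (left) or 4 control (right) libraries. AGO2 leads in both classes, and del lies between r2d2 and loqs in mutants, whereas in controls it lies below cuff.

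In adult intestines there was 1 library per genotype, so the values below have no replicate check and intervals cover counting error alone. del was counted in 53 reads in the Hinfp rescue, 140 in the His1 rescue, 454 in the mutant and 14 in the control. As CPM of all gene counts these were 2.95, 7.69, 25.2 and 0.691. The mutant level was 36.5 times that of the control (exact 95% interval 21.5 to 67.3). It was lower in both rescues, at 0.117 times the mutant with Hinfp (0.0862 to 0.156) and 0.305 times with His1 (0.250 to 0.369). Both rescues remained above the control, 4.27 times with Hinfp (2.33 to 8.33) and 11.1 times with His1 (6.42 to 20.9), and the His1 rescue was 2.61 times the Hinfp rescue (1.89 to 3.65).

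piwi had 5 reads in the Hinfp rescue, 7 in the His1 rescue, 64 in the mutant and 10 in the control. The mutant was 7.21 times the control (3.68 to 15.7), and the intervals of both rescues over the control included 1. cuff had 4 reads in the Hinfp rescue, 8 in the His1 rescue, 206 in the mutant and 46 in the control. It was 5.04 times the control in the mutant (3.65 to 7.10), and in the rescues it was below the control, at 0.0980 times with Hinfp (0.0256 to 0.268) and 0.194 times with His1 (0.0789 to 0.414). rhi had 1 read in the Hinfp rescue, 2 in the His1 rescue, 14 in the mutant and 1 in the control, so that its ratio of 15.8 in the mutant over the control spans 2.40 to 666.5. Panx had 201 and 216 reads in the Hinfp and His1 rescues, 223 in the mutant and 259 in the control. arx had 38, 58, 54 and 87 reads in the same order, which put the mutant at 0.699 times the control (0.488 to 0.993) and the Hinfp rescue at 0.492 times (0.327 to 0.728).

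On a 2-fold scale the adult mutant was higher than the control for 4 of the 10 genes (piwi, del, cuff and rhi) and lower for 0, among genes with at least 10 counts in either library. Of all such genes 33.1% were past 2-fold higher and 11.4% past 2-fold lower, so 4 of 10 is near the share for all genes. The same 4 genes were past 2-fold lower in the Hinfp rescue than in the mutant, beside 30.3% of all genes, and in the His1 rescue than in the mutant, beside 29.2%.

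The siRNA genes differed less between the adult libraries. AGO2 was at 328 CPM in the Hinfp rescue, 417.5 in the His1 rescue, 401.5 in the mutant and 203.1 in the control. Its mutant level was 1.98 times the control (1.90 to 2.05). In the rescues AGO2 was 1.61 times the control with Hinfp (1.55 to 1.68) and 2.06 times with His1 (1.98 to 2.14). Rescues and control also differ in age. r2d2 was at 37.1 CPM in the Hinfp rescue, 36.5 in the His1 rescue, 27.3 in the mutant and 46.8 in the control, so it was lowest in the mutant at 0.583 times the control (0.521 to 0.650). loqs was at 23.5, 22.3, 29.7 and 20.2 CPM in the same order, and Dcr-2 at 176.8, 210.2, 190.2 and 172.4 CPM. The mutant over control ratio was 1.47 for loqs (1.29 to 1.68) and 1.10 for Dcr-2 (1.05 to 1.16).

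**Figure D4:**
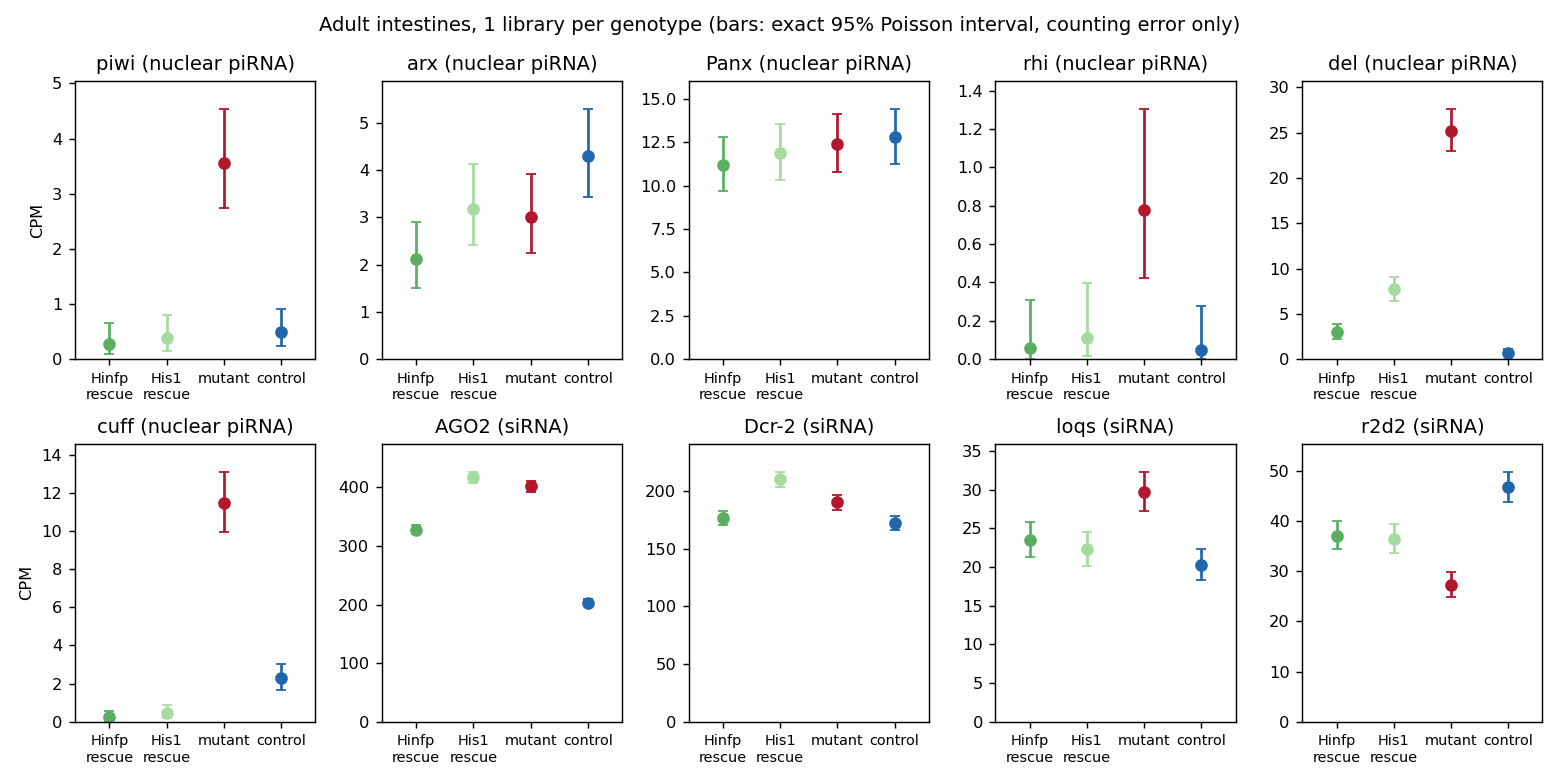
CPM over all gene counts (linear axis from 0, own scale per panel) in the 4 adult libraries, in the order Hinfp rescue, His1 rescue, mutant, control, with exact 95% Poisson intervals. The mutant is highest for piwi, rhi, del, cuff and loqs, and the control is highest for arx, Panx and r2d2. AGO2 is higher in the rescues and the mutant than in the control.

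Markers of the male germline also varied between the libraries, and whether they varied along with the 10 genes was not tested. In bulk guts, more cells of a type and more RNA per cell cannot be told apart. Of 25 listed markers 23 were found (vas is also on the piRNA list below), 1 of 23 passed the test as higher and 0 as lower, and their median log2 change was 1.10. bam, the differentiation factor of germ cells, was the marker that passed (log2 change 2.54, edgeR adjusted p = 0.0367). In the PE libraries alone 15 of the 23 were called higher, with a median of 3.80, in the SE libraries alone 0 (2 at an unadjusted p under 0.05; median 0.48), and with the replicate block 3; DESeq2 called 2. Of all genes 21.5% were called higher in the PE libraries alone and 12.3% with the block. The sum of the markers was 1.35 times the control mean in SE mutants and 4.09 times in PE mutants. No listed marker was at 0 in any mutant library or in the SE controls, and 4 were at 0 in the PE library of W1118 and 2 in that of FRT19A.

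Some libraries with like marker sums can be set side by side, in pairs chosen after their values were seen. Abundant markers weigh most in such a sum. In the SE libraries of PointMut and W1118 the most abundant were loopin-1 (210.6 and 190.5 CPM) and bol (151.7 and 190.8 CPM). A like sum therefore does not show like levels of the scarce markers. The SE library of PointMut had a marker sum of 764.3 CPM, against 757.6 CPM in the SE library of W1118, while del was 8.58 times, piwi 6.28 times and AGO2 1.75 times as high; cuff was 1.09 times as high. bam itself was at 2.02 CPM in that PointMut library, against 0.305 CPM in that W1118 library, a ratio of 6.63. The PE library of DelMut had a lower marker sum (404.8 CPM) than the SE library of FRT19A (572.8 CPM), with del 8.53 times, piwi 2.69 times and bam 11.0 times as high. For the PE library of PointMut (479.3 CPM) over the same FRT19A library the ratios were 7.56, 4.62 and 19.3. Both pairs cross the SE and PE tags, so tag and genotype cannot be told apart in them. In controls the PE level of del was 0.283 times its SE level, and that of piwi 0.903 times. The SE library of DelMut had 1.36 times the marker sum of the SE library of W1118, with del 7.13 times, piwi 6.50 times and bam 2.04 times as high. bam, the marker that passed the test, thus differed more than the sum did. Other markers were nearer to level between the SE libraries of PointMut and W1118, such as bgcn (3.33 against 3.11 CPM), topi (6.77 against 6.52) and vas (1.09 against 1.49). The part of germline RNA in the pharate differences was not tested. In adults the marker sum was 63.9 CPM in the Hinfp rescue, 73.2 in the His1 rescue, 1258 in the mutant and 74.6 in the control, and its part in the adult differences of piwi, rhi, del and cuff was not tested. Summed female germline markers ran from 24.3 to 52.7 CPM in mutants and from 8.44 to 46.7 CPM in controls, with none of the 4 tested passing in edgeR (1 at an unadjusted p under 0.05; DESeq2 called 1) and 3 of 4 called higher in the PE libraries alone. Somatic gonad markers summed to 2.94 to 10.4 CPM in mutants and 1.18 to 11.8 CPM in controls, with none of 3 passing (edgeR and DESeq2, 0 at an unadjusted p under 0.05) and 1 of 3 called higher in the PE libraries alone.

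**Figure D5:**
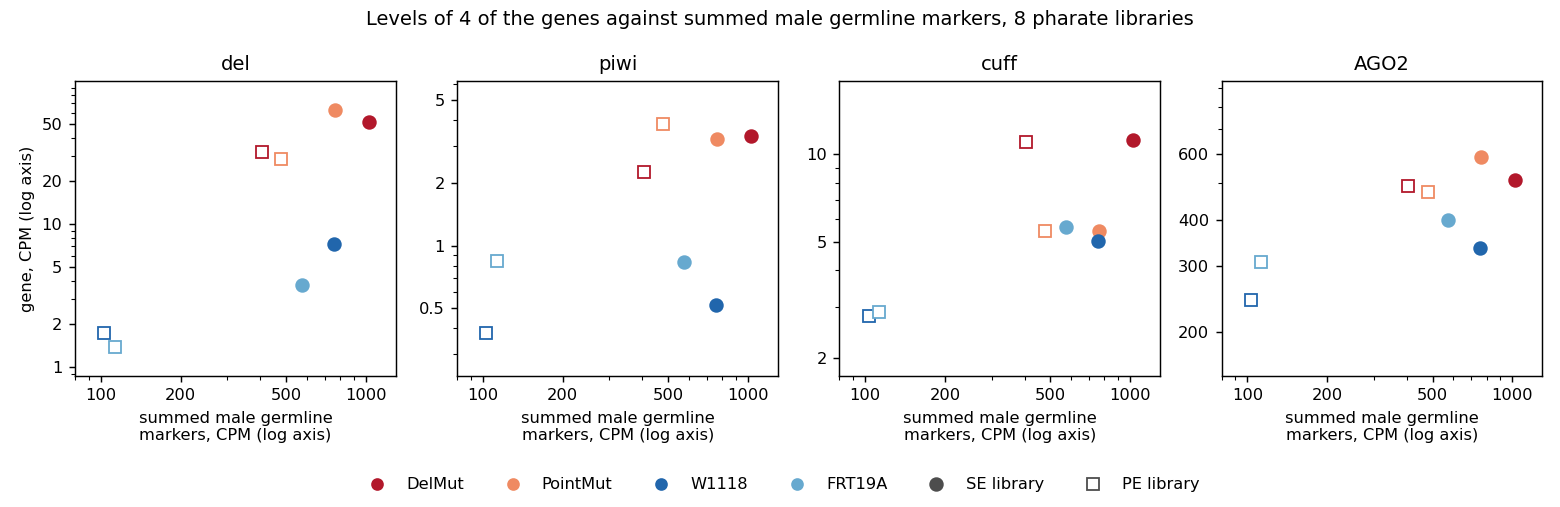
CPM of del, piwi, cuff and AGO2 (log axes) against the summed CPM of 23 male germline markers in each of the 8 pharate libraries. The SE libraries of PointMut (764.3 CPM) and W1118 (757.6 CPM) have like sums, with del and piwi higher in PointMut and cuff level, and bam, 1 of the summed markers, was at 2.02 CPM and 0.305 CPM in them.

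Markers of the gut itself were read in the same way. Enterocyte markers summed to 3379 to 5041 CPM in mutants and 1438 to 3823 CPM in controls, with 2 of 7 higher, the brush border myosin Myo31DF (log2 change 0.62, edgeR adjusted p = 0.0433) and the amylase Amy-p (1.61, adjusted p = 0.0492). Enteroendocrine markers summed to 137 to 161.9 CPM in mutants and 216.3 to 316 CPM in controls, with 2 of 6 lower, the peptide hormone Tk (-1.04, edgeR adjusted p = 0.00722) and the prohormone convertase amon (-0.70, adjusted p = 0.0474). Of 6 tubule markers 2 were higher, Uro (4.36, edgeR adjusted p = 0.0165) and Oatp58Db (1.69, adjusted p = 0.0187), and the chloride channel ClC-a was lower (-0.95, adjusted p = 0.00856). With the replicate block 5 enteroendocrine markers were called lower and 1 higher, and 3 enterocyte markers higher and 1 lower. In that fit 12.3% of all genes were called higher and 19.2% lower. None of 4 progenitor markers passed in edgeR (1 at an unadjusted p under 0.05; DESeq2 called 1), among them esg and zfh2, nor did any of 5 visceral muscle markers (1 at an unadjusted p under 0.05; DESeq2 called 1), among them Mhc and Act57B. The block called 1 progenitor marker higher and 2 visceral muscle markers lower. The part of these differences in the changes of the 10 genes was not tested.

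Around the nuclear genes, other steps of the piRNA pathway were counted from lists. Of 11 genes that act with Piwi in the nucleus, 1 was higher and 0 lower, with a median log2 change of -0.18; the gene was mael, a nuclear silencing factor that acts after Piwi, at 21.8 and 10.9 CPM in the SE and PE libraries of DelMut and 17.8 and 12.5 CPM in those of PointMut, against 3.35 and 0.506 CPM in W1118 and 2.69 and 1.05 CPM in FRT19A (log2 change 3.04, SE 0.61, edgeR adjusted p = 0.0213). Of 9 tested genes of cluster transcription and export, none passed in edgeR (3 at an unadjusted p under 0.05; DESeq2 called 1), and the most abundant, CtBP and Trf2, had log2 changes of -0.02 and 0.12. The blocked fit called 2 of the 11 nuclear partners higher and 2 lower, and 0 of the 9 cluster genes higher and 2 lower. Of all genes it called 12.3% higher and 19.2% lower, so most of these counts are near the share for all genes.

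Of 14 piRNA biogenesis genes 3 were higher and 0 lower, with a median log2 change of 0.42. These were the Tudor domain genes BoYb (3.85, edgeR adjusted p = 0.00742) and fs(1)Yb (1.68, adjusted p = 0.0263) and squ (1.22, adjusted p = 0.0289). The blocked fit called 5 of the 14 higher and 1 lower, beside 12.3% of all genes higher and 19.2% lower. Of 11 genes of the cytoplasmic amplification cycle 5 were higher and 0 lower, with a median of 1.26. AGO3, the cytoplasmic partner Argonaute, changed most (log2 change 5.26, SE 0.30, edgeR adjusted p = 0.000917), at 49.3 to 106.4 CPM in mutants and 1.60 to 2.10 CPM in controls. The Tudor protein gene tapas (1.34, edgeR adjusted p = 0.00678) and the helicase gene spn-E (3.34, adjusted p = 0.00772) were also higher. Against 4.59% of all genes called higher, 2 of 6 nuclear members, 3 of 14 biogenesis genes and 5 of 11 amplification genes were called. Among the lists nearest to the nuclear members, 1 of 11 nuclear partners and 0 of 9 cluster genes were called higher.

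Around the siRNA genes, 0 of 10 partners were higher and 2 lower, with a median log2 change of -0.48. Ars2, a cap-binding cofactor of small RNA processing, averaged lower by 0.63 on the log2 scale (edgeR adjusted p = 0.0329), and the cap-binding subunit gene Cbp80 by 0.56 (adjusted p = 0.0407). The blocked fit called 5 of the 10 lower, beside 19.2% of all genes. Of 6 core genes of the microRNA route none passed in edgeR (0 at an unadjusted p under 0.05; DESeq2 called 0); AGO1 had a log2 change of -0.06 (SE 0.19, adjusted p = 0.870) and gw one of -0.49 (SE 0.21, adjusted p = 0.199). The blocked fit called 1 of the 6 lower. AGO2 was thus called higher where AGO1, the microRNA Argonaute, was not; the difference between them was not tested.

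Transposon families are the targets of both routes. Relative to gene counts, element counts came to 11.7% (SE) and 21.2% (PE) in DelMut and 11.0% and 19.7% in PointMut, against 2.86% and 6.25% in W1118 and 0.848% and 2.20% in FRT19A. Of 18 families that Piwi silences in ovarian somatic cells, 8 were higher and 0 lower, with a median log2 change of 2.18; of all 146 families tested 32.2% were higher, with a median of 1.66. The retrovirus-like elements gypsy5 (4.78, edgeR adjusted p = 0.00134), Stalker (3.53, adjusted p = 0.00229) and ZAM (2.51, adjusted p = 0.00360) had the smallest adjusted p-values of that list. Of 7 germline families found, 1 was higher and 0 lower, with a median of 0.43. That family was the telomeric element HeT-A, at 269.2 to 393.7 CPM in mutants and 22.7 to 62.2 CPM in controls (log2 change 3.16, SE 0.57, edgeR adjusted p = 0.00163). The blocked fit called 3 of these 7 higher and 1 lower, beside 63.7% of all families higher and 2.05% lower. Near-identical copies share reads, so family values carry that uncertainty.

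Profiles over the 8 pharate libraries were compared among 8923 genes with a mean of at least 4 CPM. Each profile was the log2 of CPM plus a constant, centred on its mean. That constant damps changes at low CPM, and piwi was at 0.379 to 3.86 CPM. The genes nearest to it therefore match a damped form of its 4.91-fold change. They were Rgk1, plum and Lerp, at a mean absolute difference of 0.117, 0.142 and 0.152. For example, plum had 20.2 to 22.9 CPM in mutants and 6.79 to 9.32 CPM in controls. Nearest to AGO2 were capt, Chmp1 and CtsB, at 0.0704, 0.0803 and 0.0818. For example, capt had 208 to 243.9 CPM in mutants and 113.6 to 177.4 CPM in controls. The libraries share depth and the SE or PE tag with each gene's profile, so likeness here is a description.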

How the data were processed

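Pharate and adult tables hold the authors' deposited read counts per gene and per transposon family, used unchanged. STAR 2.5.3a and featureCounts (1.5.2 for the pharate set; 1.6.2 for the adult set) are named per the submitters' processing notes, as are Trimmomatic 0.39, Bowtie2 2.3.5, edgeR 3.28.1 and DESeq2 for the adult set, with roles not given, and the builds BDGP6 and dm6. TPM and FPKM were computed by the authors and deposited; how was not stated. No gene table row lacked a gene identifier, and 96 further columns of per-sample values were not used. Genes were matched to symbols through the RefSeq and gene name tables, 16403 of 16524 rows.

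Counts were tested with edgeR 4.0.16 (R 4.3.3): filterByExpr by the 4 genotypes (minimum count 10), TMM, quasi-likelihood F tests, two-sided, Benjamini-Hochberg adjustment over all genes at 0.05. Mutants (n = 4) were set against controls (n = 4) as classes, and genotypes as pairs (n = 2). The standard error of a log2 change is its size divided by the square root of F. Element counts used the genes' library sizes and TMM factors. The tests were also run on simulated counts, drawn without the general difference between SE and PE libraries that the data hold. That run therefore cannot check the fits without the block under such a difference. Adult libraries (1 each) have no test. Their CPM use total gene counts, and intervals are exact (Poisson for counts, conditional binomial for ratios, 95%). They cover counting error only. Calls under another scaling, with the block, without 1 library or with a single control strain keep the 13244 genes of the first fit. Of these, 13145 were tested in SE libraries alone and 13233 in PE libraries alone. With no filter 16524 genes were tested. DESeq2 tested 14754 genes for mutants against controls and 13000 to 16524 in the other comparisons. DESeq2 1.42.0 was an alternative, and other scalings, filters, single libraries, SE or PE libraries and single control strains were tried.

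Replicate numbers carry the SE or PE tag. Deviations of same-numbered libraries from their genotype means correlated at 0.69 to 0.85 over the 6 pairs of genotypes, so the numbers were taken to pair the libraries, with the pairing read from titles. Fits without the replicate block have no term for this pairing, so their spread includes the difference between SE and PE libraries. For Dcr-2 the standard error was 0.45 without the block and 0.11 with it. Which of the 2 library preparations described applies to which tag is not stated.

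Named were all 10 genes, Hinfp and HIS1, and of each list the 3 genes with the smallest adjusted p that passed, or the 2 most abundant where none did. The genes and lists were chosen with earlier results of these data known. Coordinates come from Ensembl release 115 of BDGP6. Listed names not matched were sov, boot, Hop, nos, rye, Dl, TAHRE and TART. Gene and promoter sequences were not used here.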

Additional observations from a re-analysis of the deposited data

How the results depend on the processing

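Over all alternatives run, del, piwi, AGO2, rhi and cuff stayed higher and r2d2, Panx, arx and loqs lower in mutants than in controls as classes. The sign of Dcr-2, near 0, turned with DESeq2 size factors (0.031), library size alone (0.094), DESeq2 (0.025), PE libraries alone (0.017), W1118 as the lone control (0.068) and library size with element counts (0.016), and ran from -0.27 to 0.21 without 1 library; the cause was not tested. Of the 10 genes, 1 was called lower (r2d2) with library size alone, with DESeq2, with the replicate block and in PE libraries alone, and 0 to 1 without 1 library (1 without replicate 1 of W1118). The number called higher was 0 in SE libraries alone (0 of 13145 genes in all), 1 with FRT19A as the lone control (332 of 13244) and 0 with W1118 as the lone control (167 of 13244), where fewer libraries enter. In the 4 pairs of a mutant with a control strain DESeq2 called 2, 2, 2 and 2 higher, and the replicate block 1 (DelMut against FRT19A), 2 (PointMut against FRT19A), 3 (DelMut against W1118) and 3 (PointMut against W1118), against 0 without it. Among germline transposon families the block called 3 higher and 1 lower, beside 93 and 3 of all 146. The replicate block changed no other call of the 10 genes. Without 1 library, cuff in PointMut against FRT19A ran from -0.049 to 0.93 and del in W1118 against FRT19A from -0.54 to 1.69. The log2 change of del in PE libraries minus that in SE libraries then ran from 0.27 to 1.30. Each such fit leaves 1 library in a combination of class and tag. The whole table moved too: without 1 library 270 to 638 genes were called higher and 224 to 1149 lower, beside 608 and 840 with all 8, with DESeq2 1211 and 1507, and with the block 1634 and 2543. The median log2 change of all genes was 0.11 with DESeq2, beside -0.01 in edgeR. Scaling the adult libraries with TMM factors moved AGO2 in the mutant over the control to 1.88. Depth limits rhi (2 to 17 reads) and piwi in controls (9 to 23 reads).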
